A study of Mus musculus with 4 samples.

Results

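Mbp, Mobp, Mal, Mog, Mag, Cldn11, Cnp, Ermn and Opalin encode proteins of the myelin sheath, and all 9 were found by symbol among the 32286 features of the count tables. Their RNA was counted in single nuclei of frozen hemispheres, taken from C57BL/6 mice at postnatal day 14. There were 2 libraries from mice with Slc17a6-Cre and Ago2 flox/flox, called KO below, and 2 from mice with Slc17a6-Cre and Ago2 wt/wt, called WT. Cre from Slc17a6 acts in neurons that use or once used the vesicular glutamate transporter VGLUT2, so the floxed gene is not aimed at in glia, and Cre was carried by the WT mice too. The series title concerns Ago2, an Argonaute protein that binds miRNAs, in glutamatergic neurons and its part in forming the neurovascular unit. The comparisons here asked how the myelin genes rose along the oligodendrocyte lineage and whether they differed between KO and WT.

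Myelin is made in the brain by oligodendrocytes, which wrap axons in many turns of their membrane. Oligodendrocyte precursor cells (OPC) divide, leave the cell cycle as committed precursors and then switch on the genes of the sheath, and in the mouse forebrain this takes place mainly in the first weeks after birth. Mbp mRNA is carried into the cell processes and translated beside the sheath, so that much of it lies outside the cell body. RNA set free when tissue is broken up enters droplets along with nuclei, and a gene of one cell type can then be counted in all others.

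In compact myelin, Mbp (myelin basic protein) holds the cytoplasmic faces of the membrane together, Mobp lies at the same faces, and Mal is a proteolipid that sorts membrane lipids and proteins on their way to the sheath. At the surfaces, Mog is an immunoglobulin-type protein of the outermost turn, Mag is a sialic acid-binding adhesion protein facing the axon, and Cldn11 forms the tight junctions between turns. In the parts with cytoplasm, Cnp is a cyclic nucleotide phosphodiesterase that binds the cytoskeleton, Ermn binds actin, and Opalin is a glycoprotein of the oligodendrocyte membrane. In GRCm38, Mobp spans chr9:120149707-120181484 and Mal spans chr2:127633226-127656695. Mog spans chr17:37010743-37023398, Mag chr7:30899176-30914873 and Cldn11 chr3:31149920-31164324. Cnp spans chr11:100574904-100591729, Ermn chr2:58045113-58052864 and Opalin chr19:41061710-41077113. Ermn overlaps Galnt5 and Cnp overlaps Dnajc7 on the opposite strand, and Mobp overlaps Gm38642 on its own strand. The strand setting of the counting is not given in the sources used here, so reads of these overlaps cannot be told apart.

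Promoters of the members are shown because their RNA came on at different stages of the lineage (below), while 2 transcription factors, MYRF and SOX10, are known to drive myelin genes together. RefSeq's GRCm38.p6 table held promoters of 8 of the 9 members, each from 250 bases before to 50 bases after a transcription start, 300 in all. The MYRF motif CTGGCAC, read on both strands with GTGCCAG as its complement, was in 4 of the 10 promoters listed for these 8 members, against 5.01% of the 32851 promoters in the table. The 4 belong to 3 members, Cnp, Opalin and Mag, since Mag has 3 promoters in the table. Of these, 2 overlap and hold the same site, 68 and 9 bases before their starts, and the other holds neither motif. The SOX10 motif ACAAAG, with the complement CTTTGT, was in 5 of the 10, against 18.7% of all promoters, and the 5 belong to Cnp, Mobp, Opalin and, again through overlapping windows, Mag. Only these exact letters were searched, so a promoter without them may hold another form of a site. The 4 promoters below hold these letters in capitals, written 5′ to 3′ along the gene, and none of the motifs overlap. Mag is chr7:30914814-30915113 on the minus strand, with CTTTGT 126 and CTGGCAC 68 bases before the start. Cnp is chr11:100574689-100574988 on the plus strand, with ACAAAG 167 and CTGGCAC 81 bases before it. Opalin is chr19:41077064-41077363 on the minus strand, with ACAAAG 139 bases before and 23 after the start and GTGCCAG 36 after it. Mobp is chr9:120149492-120149791 on the plus strand, with CTTTGT 6 times between 243 and 120 bases before the start and neither CTGGCAC nor GTGCCAG in this window.
Mag: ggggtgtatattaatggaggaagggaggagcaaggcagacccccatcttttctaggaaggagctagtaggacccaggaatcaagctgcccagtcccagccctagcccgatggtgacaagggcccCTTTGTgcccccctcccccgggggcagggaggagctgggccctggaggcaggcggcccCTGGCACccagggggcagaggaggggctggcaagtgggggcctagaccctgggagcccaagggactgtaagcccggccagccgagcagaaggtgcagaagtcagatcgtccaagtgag
Cnp: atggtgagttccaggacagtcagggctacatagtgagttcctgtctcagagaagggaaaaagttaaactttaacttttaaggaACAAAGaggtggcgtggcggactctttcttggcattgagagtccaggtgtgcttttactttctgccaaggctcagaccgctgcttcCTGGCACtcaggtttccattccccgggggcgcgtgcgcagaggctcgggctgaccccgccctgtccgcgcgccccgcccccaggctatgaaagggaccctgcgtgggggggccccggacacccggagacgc
Opalin: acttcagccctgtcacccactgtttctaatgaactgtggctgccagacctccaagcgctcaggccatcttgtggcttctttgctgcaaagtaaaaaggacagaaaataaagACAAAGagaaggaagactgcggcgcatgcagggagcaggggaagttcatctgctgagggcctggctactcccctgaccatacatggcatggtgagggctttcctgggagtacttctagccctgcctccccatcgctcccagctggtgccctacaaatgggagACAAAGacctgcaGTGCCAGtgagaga
Mobp: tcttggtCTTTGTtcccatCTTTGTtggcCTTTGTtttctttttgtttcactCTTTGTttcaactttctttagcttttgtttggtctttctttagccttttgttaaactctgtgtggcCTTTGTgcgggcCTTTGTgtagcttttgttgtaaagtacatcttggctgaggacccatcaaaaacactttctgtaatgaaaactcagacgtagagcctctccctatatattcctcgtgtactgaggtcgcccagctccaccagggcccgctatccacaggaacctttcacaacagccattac

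The KO libraries held 3512 and 3472 barcodes with 10845009 and 11439733 UMIs, and the WT libraries 4066 and 6752 barcodes with 13107920 and 29317266 UMIs. Of 17802 barcodes, 15450 nuclei were kept, and 37 barcode sequences occurred in more than 1 library. Mitochondrial UMIs made up 0.299% and 0.299% of kept UMIs in the KO libraries, against 0.731% and 0.250% in the WT libraries, so WT replicate 1 stood apart from the other 3. Cerebellar granule neurons made up 4195 of the kept nuclei, although the labels name hemispheres. In glutamatergic neurons Ago2 was at 110 and 104 CPM (counts scaled to the depth of the summed class) in the KO libraries and at 74.0 and 80.4 in the WT libraries (log2 0.41, adjusted p 0.815), so it was not lower in KO. The sources used here do not name the deleted exons, and counts from the 3′ end may lie outside them, so this checks nothing, and KO and WT name the libraries as labelled. Nothing says that the libraries of a group come from separate animals, and each p then measures only the spread between libraries, which may be technical.

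Stages were clusters of nuclei found without the 9 genes and named from other markers. The OPC class showed 12 of 12 OPC markers such as Pdgfra and Cspg4, the committed precursors 12 of 13 such as Enpp6 and Bcas1, and the mature oligodendrocytes 18 of 20 such as Prr5l. They are OPC-like, committed precursor-like and mature oligodendrocyte-like by these markers and are called by the plain names. OPC were 132 and 169 nuclei in the KO libraries and 171 and 299 in the WT libraries. Committed precursors were 52 and 78 nuclei in KO, against 106 and 175 in WT. Mature oligodendrocytes were 70 and 74 nuclei in KO, against 93 and 184 in WT. As shares of all kept nuclei, KO minus WT was -0.14 on the log2 scale for OPC, -0.62 for committed precursors and -0.42 for mature oligodendrocytes. None of the 3 shares passed the edgeR test, with adjusted p of 0.910, 0.704 and 0.704, and none had an unadjusted p under 0.05.

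Along the lineage the 9 genes did not come on together. To compare their course, the level of each gene was set against its own level in mature oligodendrocytes of the same library and averaged over the 4 libraries. Committed precursors were split, after the data were seen, into an earlier sub-cluster led by Bmp4 and a later one. The Bmp4 sub-cluster held 21 and 39 nuclei in the KO libraries and 57 and 97 in the WT libraries, and the later one 31 and 39 in KO and 48 and 78 in WT. In the Bmp4 sub-cluster Cnp was at 44.5% of its mature level and Mbp at 27.3% (SD 7.71). Cldn11 was there at 9.56%, Mag at 7.81%, Mog at 2.77%, Mobp at 2.26%, Opalin at 0.845% and Mal at 0.142%. Cnp and Mbp, the cytoskeletal enzyme and the membrane adhesive, were thus the furthest along in the earlier precursors, and their order is not fixed, since Cnp ranged between 18.2% and 62.8% in the single libraries. In nuclei outside the lineage the same measure was 9.52% for Cnp, 8.52% for Mbp, 1.52% for Cldn11, 0.826% for Mag and 0.792% for Mog. It was 2.14% there for Mobp, 0.888% for Opalin and 0.838% for Mal. These last genes were thus near or below that level in the Bmp4 sub-cluster.

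In the later sub-cluster Mag was at 115% of its mature level, between 102.7% and 123% in the single libraries. Mbp reached 89.3%, Cldn11 55.9%, Cnp 49.7% and Mobp 46.1%. The surface protein gene Mog was at 17.9%, Opalin at 14.5% and Ermn at 6.65%, while Mal stayed at 0.445%. The ranges of Mag, Mbp and Cldn11 over the 4 libraries did not overlap: Mbp lay between 76.8% and 95.8%, below every value of Mag, and Cldn11 between 39.8% and 73.8%, below every value of Mbp. Cldn11, Cnp and Mobp overlapped one another. Mal had 0 and 1 UMIs in committed precursors of the KO libraries and 0 and 2 in those of the WT libraries. The 3 members with MYRF letters in the promoters shown above were at 44.5% (Cnp), 7.81% (Mag) and 0.845% (Opalin) of their mature levels in the Bmp4 sub-cluster. Any link between these letters and the order of onset was not tested.

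**Figure D1:**
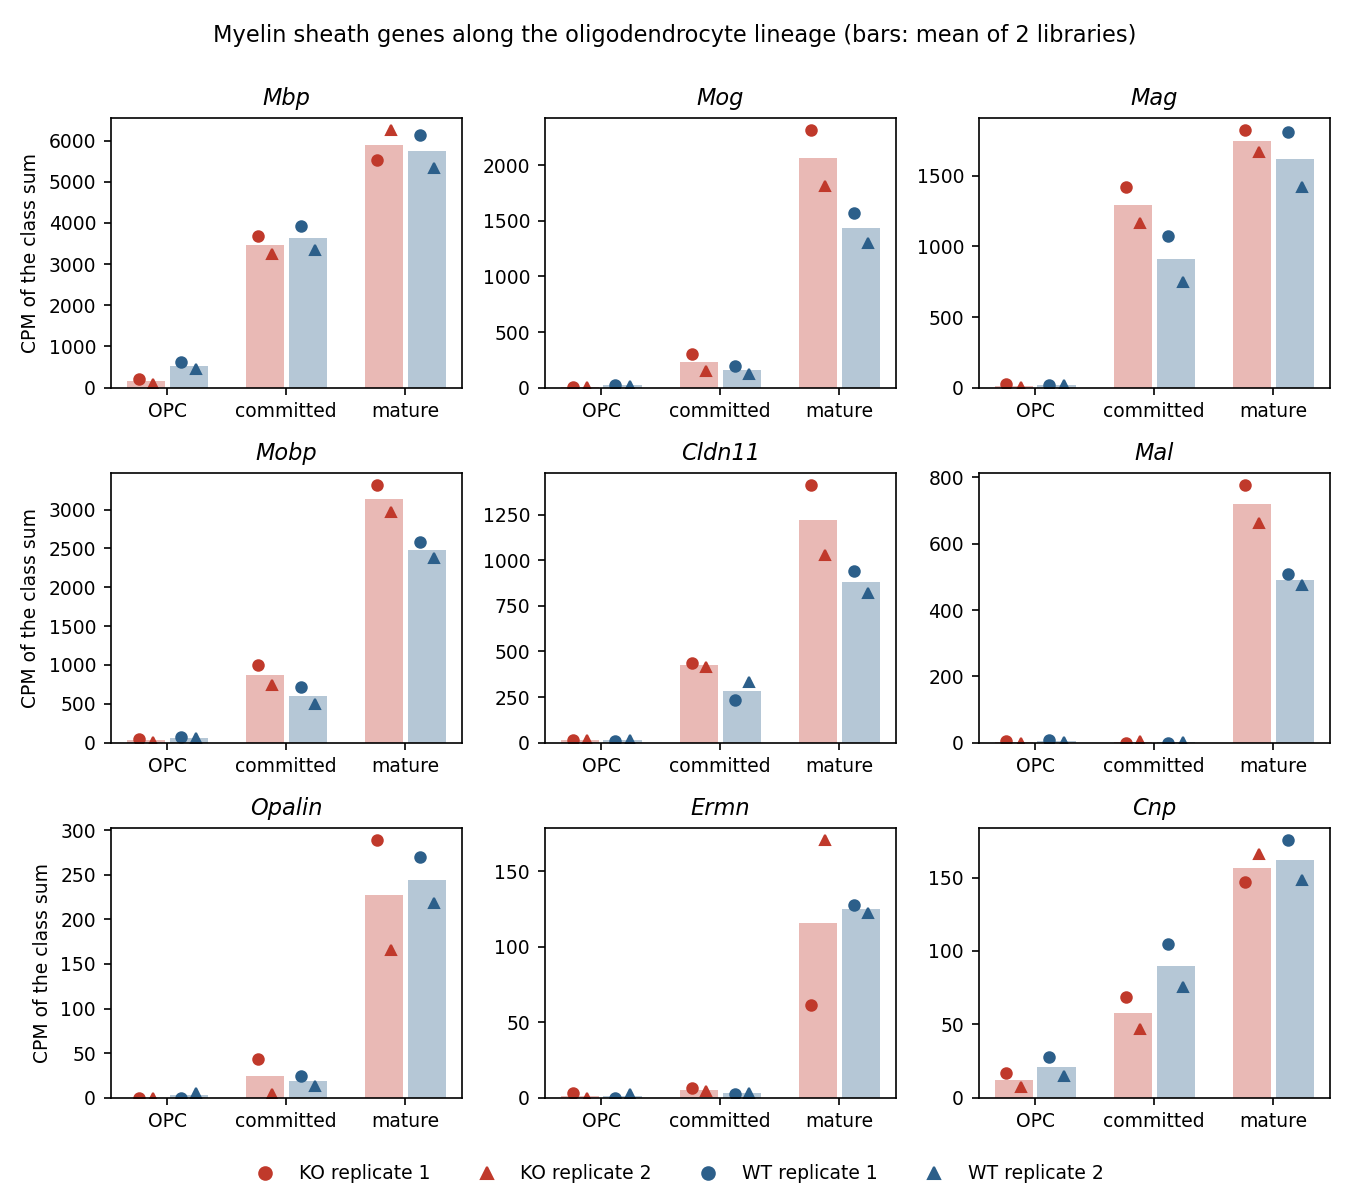
Level of each of the 9 genes in CPM (vertical axis, linear and starting at 0) in OPC, committed precursors and mature oligodendrocytes, with a point for each library and bars for the mean of the 2 libraries, KO left of WT. Mbp and Mag are already high in committed precursors, whereas Mal and Ermn are near 0 until the mature stage, where the 2 KO points of Mog, Mobp, Cldn11 and Mal lie above both WT points.

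In OPC Mbp fell to 218 and 91.2 CPM in the KO libraries, against 614 and 454 in the WT libraries, and it had the smallest p of 6132 genes. The log2 change was -1.79 (SE 0.25, edgeR adjusted p 0.00400), with means of 155 ± 90.0 CPM in KO and 534 ± 113 in WT (SD, n = 2 each). These values rest on 79 and 37 Mbp UMIs in KO, against 266 and 432 in WT, and the ratio of the summed counts was 0.300 (conditional exact 95% interval 0.244 to 0.366, which covers counting error only). Both KO libraries lay below both WT libraries. Of the 2 members that had enough counts to be tested, Mbp passed and Mobp did not, beside 4 of all genes tested (0.0652%). Both members had both KO libraries below both WT libraries, as had 17.8% of the genes. Mobp had 44.2 and 14.8 CPM in KO, against 73.8 and 57.8 in WT, a log2 change of -1.15 (SE 0.40, adjusted p 0.480). Without KO replicate 1 Mobp passed as well, at -2.07 (adjusted p 0.0124).

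The call for Mbp in OPC was lost with DESeq2 (log2 -1.78, SE 0.61, adjusted p 1.00) and without WT replicate 1 (log2 -1.58, adjusted p 0.445). Leaving out each library in turn gave log2 changes from -2.51 to -1.27, the extremes being without KO replicate 1 and without KO replicate 2. With at most 2% mitochondrial UMIs per nucleus the change was -1.997 (adjusted p 2.80e-05). Over 14 alternatives the adjusted p ran between 5.29e-15 and 1.00. Mitochondrial UMIs were 0.217% and 0.1703% of OPC UMIs in KO, against 0.779% and 0.231% in WT. The other 3 genes that passed in OPC were Fth1, the ferritin heavy chain that stores iron, at -1.86 (SE 0.31, adjusted p 0.00972), Ninj2, an adhesion protein, at -1.80 (adjusted p 0.00460), and Inpp4b, a phosphoinositide phosphatase, at 1.12 (adjusted p 0.00427). The class held 51 cycling nuclei, 2 and 2 in the KO libraries, against 10 and 37 in the WT libraries. Without these cycling nuclei, Mbp had 224 and 92.3 CPM in KO, against 627 and 496 in WT. The remaining members held few counts in OPC: Mog had 5.53 and 7.39 CPM in KO, against 25.4 and 14.7 in WT, from 5 UMIs in KO and 25 in WT. The groups of Mag, Cldn11, Mal, Opalin, Ermn and Cnp did not separate, and Opalin had 0 UMIs in both KO libraries and 5 in WT.

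A few nuclei carried much of the Mbp in OPC. Nuclei with at least 5 Mbp UMIs were 3 and 1 in the KO libraries (2.27% and 0.592%), against 9 and 21 in the WT libraries (5.26% and 7.02%). Without them the level was 93.5 and 72.4 CPM in KO, against 284 and 121 in WT, so both KO libraries remained below both WT libraries. In mature oligodendrocytes such nuclei were 90% and 95.9% in KO and 93.5% and 95.7% in WT. After each nucleus was thinned to 1000 UMIs, Mbp was seen in 12.98% and 4.94% of OPC nuclei in the KO libraries, against 28.1% and 18.4% in the WT libraries. Over the pooled nuclei of a group the shares were 8.53% in KO (exact 95% interval 5.60% to 12.3%) and 21.9% in WT (18.3% to 25.9%), intervals that cover counting error and not the spread between libraries. The KO libraries differed from each other by more than the width of the pooled KO interval. Unthinned, the pooled shares were 18.3% in KO and 38.9% in WT, and 8 KO nuclei and 0 WT nuclei were too shallow to thin. Thinned in the same way, 10.8% and 16.6% of nuclei outside the lineage (all named classes other than the 3 stages) had an Mbp UMI in the KO libraries, against 30.5% and 20.9% in the WT libraries. Unthinned and pooled, these shares were 25.8% in KO and 45.6% in WT. Median depths were 2193 UMIs in KO and 2682 in WT OPC, and 2099 in KO and 2668.5 in WT nuclei outside the lineage. The OPC share lay below that of nuclei outside the lineage in 3 of the 4 libraries and above it in KO replicate 1.

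In committed precursors 0 of the 6 genes tested passed, and 0 of 4795 genes passed in all (0%). An unadjusted edgeR p under 0.05 was reached by 257 genes, among them Cldn11 alone of the members, and DESeq2 called 0 genes. Mag, Mobp and Cldn11 had both KO libraries above both WT libraries, as had 18.3% of all genes, and Cnp had both below, as had 16.1%. Mag had 1419 and 1168 CPM in the KO libraries, against 1075 and 751 in the WT libraries, a log2 change of 0.48 (SE 0.22, adjusted p 0.887). Cldn11 had 438 and 415 CPM in KO, against 234 and 333 in WT, a log2 change of 0.54 (SE 0.24, adjusted p 0.887). Mobp had 994 and 749 CPM in KO, against 711 and 500 in WT, a log2 change of 0.50 (SE 0.23, adjusted p 0.887).

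Cnp lay on the other side, with 68.8 and 47.1 CPM in the KO libraries, against 105 and 75.4 in the WT libraries. Its log2 change was -0.66 (SE 0.36, adjusted p 0.887), the lowest of the 6. Mbp had 3689 and 3234 CPM in KO and 3935 and 3336 in WT, with a log2 change of -0.09 (SE 0.18) and groups that overlapped. Mog overlapped too, with 306 and 150 CPM in KO, against 199 and 120 in WT. The mix of the earlier and later sub-clusters differed between libraries, the earlier one holding 21 of 52 and 39 of 78 nuclei in KO, against 57 of 106 and 97 of 175 in WT. Within the earlier sub-cluster Mbp had 1351 and 1125 CPM in KO, against 1902 and 1904 in WT, and within the later one 5297 and 4796 in KO, against 5586 and 4990 in WT. The part of this mix in the values of the whole class was not tested.

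In mature oligodendrocytes none of the 9 genes passed the test between KO and WT, and 4 of them, Mog, Mobp, Cldn11 and Mal, had both KO libraries above both WT libraries. For comparison, 7 of 4277 genes passed in this class (0.164%), and both KO libraries lay above both WT libraries for 21.5% of the genes. Mal had 776 and 664 CPM in the KO libraries, against 508 and 476 in the WT libraries, with means of 720 ± 79.2 and 492 ± 22.8 (SD, n = 2 each). Its log2 change was 0.50 (SE 0.20), with an edgeR p of 0.0248 unadjusted and 0.670 adjusted. The gap between the groups was larger than the spread within either of them.

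Mog had 2314 and 1812 CPM in the KO libraries and 1567 and 1297 in the WT libraries, a log2 change of 0.48 (SE 0.19, adjusted p 0.676). Mobp had 3312 and 2969 CPM in KO, against 2587 and 2383 in WT, a log2 change of 0.29 (SE 0.17, adjusted p 0.866). Cldn11 had 1410 and 1028 CPM in KO, against 943 and 822 in WT, a log2 change of 0.42 (SE 0.20, adjusted p 0.810). In all 3 the higher KO library was replicate 1 and the lower WT library replicate 2. The log2 changes of Mal, Mog, Cldn11 and Mobp were positive in each of the 10 alternatives run and without each library in turn. Thinned to 1000 UMIs per nucleus, 50.4% of KO mature oligodendrocytes had a Mal UMI (exact 95% interval 41.8% to 58.9%), against 37.8% of WT ones (32.1% to 43.8%). By library the thinned shares were 52.9% and 47.9% in KO, against 40.7% and 36.4% in WT. Unthinned, the pooled shares were 77.1% in KO and 71.8% in WT, at median depths of 2735.5 and 3297 UMIs. Outside the lineage 0.336% of KO and 0.527% of WT nuclei had a Mal UMI after thinning.

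Mbp did not separate in mature nuclei, with 5526 and 6247 CPM in the KO libraries and 6142 and 5333 in the WT libraries. Its log2 change was -0.01 (SE 0.18, approximate 95% interval -0.37 to 0.35). Mag had 1822 and 1669 CPM in KO and 1812 and 1424 in WT, a log2 change of 0.06 (SE 0.19). Cnp had 147 and 166 CPM in KO, against 175 and 148 in WT, and a log2 change of -0.08 (SE 0.26). For these 3 genes the KO and WT libraries overlapped. Opalin had 289 and 166 CPM in KO, against 270 and 219 in WT. Ermn had 61.5 and 171 CPM in KO, against 128 and 122 in WT, and its log2 change of -0.14 (SE 0.38) lay between -1.12 and 0.43 when single libraries were left out. An exact two-sided permutation test of 2 libraries against 2 cannot go below a p of 0.333. DESeq2 called 0 of the 9 genes as well, and 2 of them, Mal and Mog, had an unadjusted edgeR p under 0.05, as did 270 of all genes tested.

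Outside the lineage, in 1911 and 1896 nuclei of the KO libraries and 1879 and 3731 of the WT libraries, none of the 8 members tested passed, and 0 of 15304 genes passed in all (0%). All 8 log2 changes were negative in the sum of classes, where 49.3% of all genes tested had positive ones. The 8 genes were counted in the same 4 libraries, so their signs are not separate observations. With equal weight for each class Mag was at 0.07 and Opalin at 0.40, and without single libraries Cldn11 reached 0.23. Mbp had 158 and 397 CPM in KO, against 1027 and 435 in WT, so the groups did not overlap but KO replicate 2 lay close to WT replicate 2. Its log2 change was -1.41 (SE 0.45), with an edgeR p of 0.0129 unadjusted and 0.891 adjusted. Mog and Opalin also had both KO libraries below both WT libraries, which makes 3 of 8 members, as had 13.5% of all genes. For Opalin the nearest KO and WT libraries were both at 2.04 CPM when rounded, so its groups touched. Mog had 10.4 and 11.1 CPM in KO, against 17.0 and 13.2 in WT (log2 -0.50, SE 0.23, adjusted p 1.00). An unadjusted p under 0.05 was reached by 735 genes, and of the members by Mbp. DESeq2 called 11 genes and 0 members. Mbp passed without KO replicate 2 (log2 -2.23, adjusted p 0.0421) and with no filter on low counts (log2 -1.41, adjusted p 0.0153), and its adjusted p ran between 2.35e-05 and 1.00 over 16 alternatives.

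The level outside the lineage was 8.52% of the mature level for Mbp (2.86% to 16.7% in single libraries) and 9.52% for Cnp, against 2.14% for Mobp, 1.52% for Cldn11 and 0.792% for Mog. In OPC the same measure was 5.98% for Mbp and 10.4% for Cnp. Set against nuclei outside the lineage of the same library, Mbp in OPC was 60.6 CPM higher in KO replicate 1 and 18.8 higher in WT replicate 2, and the difference was -306 CPM in KO replicate 2 and -413 in WT replicate 1. So OPC did not hold more Mbp RNA than unrelated nuclei in a way that the libraries shared. In committed precursors Mbp was 3.83 to 23.4 times its level outside the lineage in the single libraries, and in mature oligodendrocytes 5.98 to 35.0 times.

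Single classes outside the lineage had the same direction for Mbp, with the mean of the KO libraries below that of the WT libraries in 8 of 8 classes and both KO libraries below both WT libraries in 7 of 8, all but fibroblasts. For genes in general that share was 13.9% in glutamatergic neurons, 15.5% in GABAergic neurons, 14.8% in cerebellar inhibitory neurons, 18.3% in granule neurons, 18% in astrocytes, 17.2% in microglia and 15.4% in endothelial nuclei. The 8 classes come from the same 4 libraries and share the free RNA of each, so they are not 8 separate observations. The log2 change of Mbp was negative in 7 of the 8 without KO replicate 1 (highest 0.16) and without WT replicate 1 (highest 0.25). Astrocytes had 261 and 968 CPM in KO, against 3949 and 1246 in WT, a log2 change of -2.10 (SE 0.53, adjusted p 0.222). Their mitochondrial share was 0.365% and 0.529% in KO, against 1.64% and 0.559% in WT, and its part in the result was not tested. Microglia had 88.2 and 164 CPM in KO, against 389 and 645 in WT (log2 -2.03, SE 0.38, adjusted p 0.224).

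Glutamatergic neurons had 145 and 133 CPM of Mbp in the KO libraries and 269 and 266 in the WT libraries. Their log2 change was -0.99 (SE 0.15, adjusted p 0.0539). Cerebellar granule neurons had 161 and 249 CPM in KO, against 510 and 480 in WT (log2 -1.27, SE 0.19, adjusted p 0.292). GABAergic neurons had 96.9 and 157 CPM in KO, against 384 and 264 in WT (log2 -1.35, SE 0.24, adjusted p 0.178). In all 3 neuron classes the higher KO library lay below the lower WT library. Over the 8 classes 27 pairs of class and member were tested and 0 passed, where 0% of all genes passed in GABAergic neurons, granule neurons, cerebellar inhibitory neurons, fibroblasts and microglia, 0.121% in astrocytes, 0.0584% in endothelial nuclei and 0.00959% in glutamatergic neurons. DESeq2 called 3 of the pairs, Mbp in glutamatergic, GABAergic and granule neurons. Leaving out a library raised the count to 3 without KO replicate 1, 7 without KO replicate 2, 4 without WT replicate 1 and 6 without WT replicate 2. The mean of the KO libraries lay below that of the WT libraries in 7 of the 8 classes for Cnp, 6 for Mog and Mal, 5 for Mag, Mobp and Ermn, and 4 for Cldn11 and Opalin. Mobp in endothelial nuclei had a log2 change of 1.21 (SE 0.72), with 238 CPM in KO replicate 2 from 7 of its 50 nuclei, 14.6 in KO replicate 1 and 40.4 and 81.4 in WT.

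**Figure D2:**
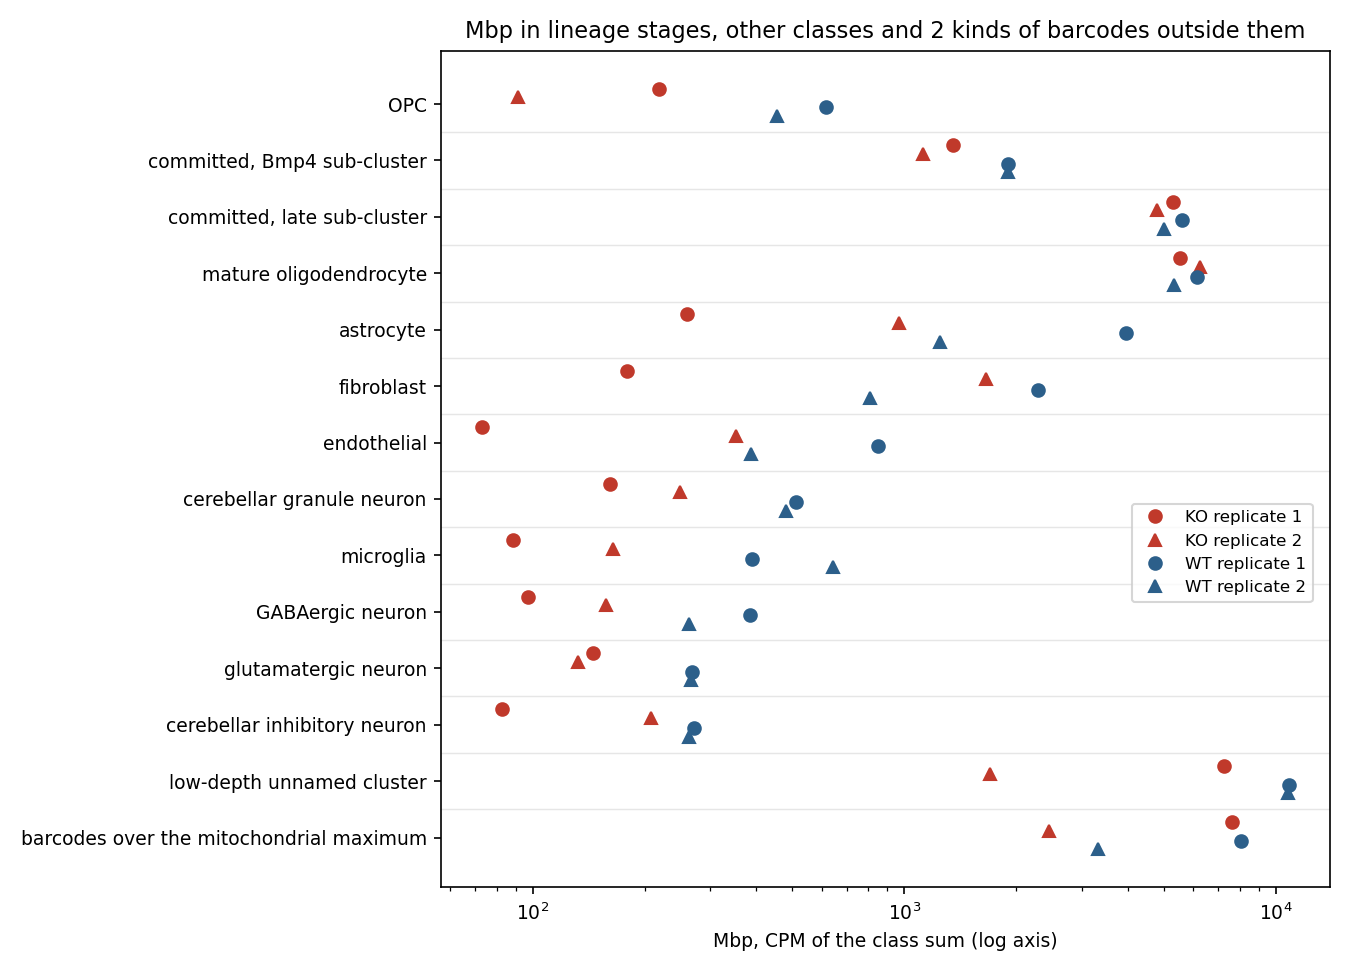
Level of Mbp in CPM on a log axis, for each stage of the lineage, each other class and 2 kinds of barcodes outside them, with a point for each library. In OPC and in 7 of the 8 other classes both KO points lie left of both WT points, while in mature oligodendrocytes the 4 points overlap, and the low-depth cluster spans 1703 to 10881 CPM and the barcodes over the mitochondrial maximum 2448 to 8045 CPM.

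Barcodes rich in Mbp RNA were also found among those that no class claimed. An unnamed cluster of 1045 shallow barcodes, led by Fth1, Mbp, Rgs5 and Tpt1, had 7242 and 1703 CPM of Mbp in the KO libraries and 10881 and 10822 in the WT libraries. Its median depth was 954 and 815 UMIs in KO and 662 and 804 in WT. The barcodes removed for passing the maximum of 5% mitochondrial UMIs, 198 and 213 in KO and 722 and 593 in WT, had 7605 and 2448 CPM in KO, against 8045 and 3323 in WT. In both kinds KO replicate 2 was the lowest library. KO replicate 1 was above KO replicate 2 in both kinds of barcodes, and below it outside the lineage. Fth1, which led the shallow cluster, had a log2 change of -1.86 in OPC, where Mbp was at -1.79. In committed precursors Fth1 was at -2.95 (SE 0.52, edgeR adjusted p 0.690), where Mbp was at -0.09. In mature oligodendrocytes Fth1 was at -0.28 (SE 0.34). The 10 mitochondrially encoded genes tested in OPC all had negative log2 changes, with a median of -1.27, and 0 passed. In committed precursors all 8 tested were negative too (median -1.34), as were all 8 in mature oligodendrocytes (median -1.16), where Mbp was at -0.09 and -0.01. The smallest p were those of mt-Co1 at -1.48 (SE 0.32, adjusted p 0.0741) with 279 and 239 CPM in KO, against 1117 and 371 in WT, and mt-Co2 at -1.35 (adjusted p 0.0893). The summed level of 19 other markers of mature oligodendrocytes in OPC was 628 and 574 CPM in KO, against 718 and 661 in WT. Of these 19, 7 were tested, 3 with positive and 4 with negative changes. Gjb1, Hapln2 and Nkx6-2 were at 0 UMIs in KO, but the WT libraries held only 1 and 2, 1 and 1, and 1 and 1 UMIs of them. The OPC sums held 361636 and 405804 UMIs in KO, against 433314 and 951998 in WT. Counts this low cannot show a difference between KO and WT for these genes. The part of free RNA, of the mitochondrial share and of WT replicate 1 in the result for Mbp was not tested.

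The 9 genes made up the myelin UMIs in unequal shares, and these shares changed along the lineage. Mbp gave 66.3% of the UMIs of the 9 genes in KO OPC and 78.1% in WT OPC, 76.0% and 81.9% in the Bmp4 sub-cluster, 51.9% and 58.2% in the later precursors, and 38.6% and 43.5% in mature oligodendrocytes. Outside the lineage it gave 72.4% in KO and 82.4% in WT, in the shallow cluster 88.2% and 91.3%, and in the barcodes over the mitochondrial maximum 89.5% and 89.0%. Mog gave 13.5% in KO and 10.9% in WT mature oligodendrocytes, 3.35% and 1.92% outside the lineage and 0.678% and 0.554% in the shallow cluster. The mix of myelin RNA outside the lineage thus held more Mbp and less Mog than that of mature nuclei in each library. These shares compare classes, not the levels of genes, and are given without a test.

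**Figure D3:**
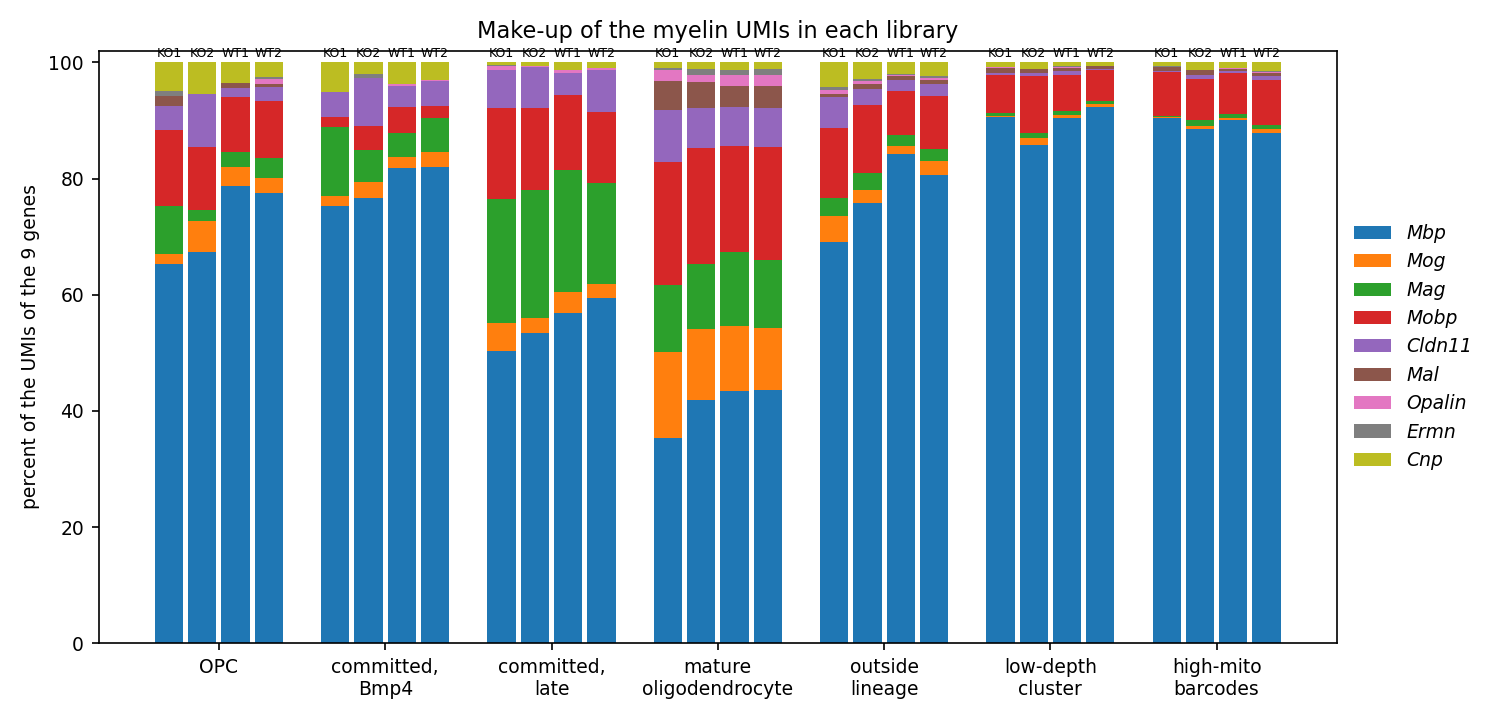
Share of each of the 9 genes in their summed UMIs (vertical axis in percent, from 0 to 100), one bar per library, KO left of WT, in 4 stages of the lineage and in nuclei and barcodes outside it. Mbp takes 35.3% to 43.6% of the bar in mature oligodendrocytes, 85.8% to 92.2% in the shallow cluster and 87.8% to 90.5% in the barcodes over the mitochondrial maximum.

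Whether the change between KO and WT differed between classes was tested by the interaction term of a model that holds each library as a block. For Mbp the log2 change in OPC lay 1.80 below that in mature oligodendrocytes (difference -1.80, SE 0.28, edgeR adjusted p 2.29e-07), and it was the one member of 9 to pass, beside 18 of 7006 genes (0.257%). Mobp had a difference of -1.44 (SE 0.41, adjusted p 0.140) and Mog of -1.95 (SE 0.68, adjusted p 0.411). The call for Mbp was lost with DESeq2 (adjusted p 0.181) and without WT replicate 1 (adjusted p 0.109), and the difference ran from -2.58 to -1.15 when single libraries were left out. Its adjusted p ran between 2.40e-16 and 0.181 over 13 alternatives. Between nuclei outside the lineage and mature oligodendrocytes the difference for Mbp was -1.38 (SE 0.30, adjusted p 0.00351), again the one member to pass, beside 29 of 14729 genes (0.197%). Mal was next at -1.34 (SE 0.35, adjusted p 0.0572), then Mobp at -0.96 (adjusted p 0.166) and Mog at -0.93 (adjusted p 0.363). This call was lost with DESeq2 (adjusted p 1.00), without WT replicate 1 (difference -0.75, adjusted p 1.00) and without WT replicate 2 (adjusted p 0.164), and 5 members passed without KO replicate 2. Over 13 alternatives the adjusted p of Mbp ran between 1.16e-19 and 1.00.

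Between OPC and nuclei outside the lineage 0 members passed, and 0 had an unadjusted p under 0.05, beside 31 of 14366 genes (0.216%). The difference for Mbp was -0.38 (SE 0.21), with an edgeR p of 0.0654 unadjusted and 0.961 adjusted. It was -1.74 without KO replicate 1 (adjusted p 1.25e-05) and 0.82 without KO replicate 2, so its size and sign rested on single libraries. DESeq2 called 0 members and 1 gene.

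**Figure D4:**
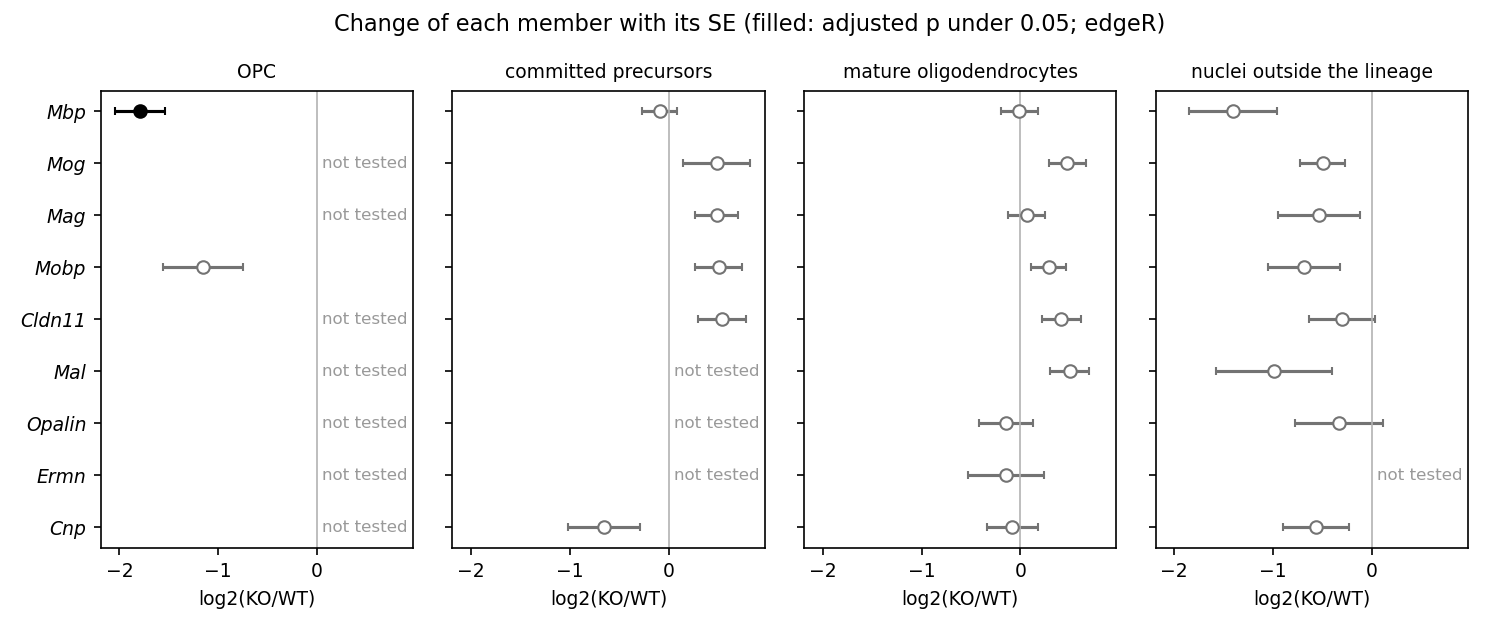
Log2 change of each of the 9 genes, KO over WT, with its SE (horizontal axis), in OPC, committed precursors, mature oligodendrocytes and nuclei outside the lineage. The one filled point is Mbp in OPC at -1.79, and genes with too few counts are marked as not tested.

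Other genes of the sheath and its supply were counted from lists, and none of their genes passed in the 3 stages or outside the lineage. Of 31 other genes of compact myelin and the paranode, 13 were tested in OPC and 6 had positive changes. In committed precursors 13 of 17 were positive (median 0.12, against 0.0022 over all genes), in mature oligodendrocytes 16 of 27 (median 0.06, against -0.0030) and outside the lineage 9 of 26. Pllp, a proteolipid of myelin, had 175 and 150 CPM in committed KO precursors, against 96.5 and 75.4 in WT (log2 0.91, SE 0.27, adjusted p 0.864). Both KO libraries of Pllp lay above both WT libraries in that stage. Anln, an actin-binding protein of the septin scaffold, had 5.53 and 12.3 CPM in KO OPC, against 34.6 and 35.7 in WT (log2 -1.93, SE 0.55, adjusted p 0.245). These values rest on 2 and 5 UMIs in KO, against 15 and 34 in WT. Anln passed the filter on low counts through the WT libraries alone, which favoured a negative change, so its values are a description. Cycling OPC nuclei were 2 and 2 in KO, against 10 and 37 in WT, and their part in the value of Anln was not tested. Efnb3 was at 0.69 in mature oligodendrocytes, Tspan2 was at -0.88 in OPC, and Tppp and Gpr37 were at -0.80 and -1.12 outside the lineage.

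Of the transcription factors of myelination, 8 of 13 were positive in OPC, 7 of 13 in committed precursors, 7 of 11 in mature oligodendrocytes and 7 of 16 outside the lineage. Myrf, the master regulator of myelin genes, had 194 and 263 CPM in mature KO nuclei, against 212 and 140 in WT (log2 0.38, SE 0.28), and Sox10 had 252 and 330 CPM in KO OPC, against 228 and 229 in WT (log2 0.35, SE 0.19). The Wnt effector Tcf7l2 had log2 changes of 0.64 in mature oligodendrocytes, 0.21 in committed precursors and 0.49 outside the lineage, Sox6 was at -0.24 in committed precursors, Sox5 at 0.21 in OPC and Olig1 at -1.11 outside the lineage. Genes of myelin lipid synthesis were positive in 7 of 11, 8 of 11 and 7 of 14 cases in OPC, committed and mature nuclei and in 9 of 17 outside the lineage. The desaturase Scd2 had 47.0 and 54.2 CPM in KO OPC, against 111 and 69.3 in WT (log2 -0.76, SE 0.31), and 0.32 as its log2 change in mature oligodendrocytes. Elovl1, which lengthens fatty acids, was at 0.60 in mature oligodendrocytes, Elovl7 at 0.54 in committed precursors and 0.51 in OPC, Sptlc2 at 0.39 in committed precursors, and Gal3st1, the sulfatide synthase, at -0.86 outside the lineage.

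Cholesterol is a main lipid of myelin, and genes of its synthesis were positive in 0 of 8 cases in OPC, 3 of 12 in committed precursors, 8 of 14 in mature oligodendrocytes and 6 of 20 outside the lineage. The median in OPC was -0.74, against -0.0011 over all genes, and 0 of the 8 passed. Hmgcs1, which makes HMG-CoA, had both KO libraries below both WT libraries in OPC (log2 -1.43, SE 0.50, adjusted p 0.475). Nsdhl was at 0.74 in mature oligodendrocytes and 0.77 in committed precursors, Sc5d at 0.54 in mature nuclei, and Dhcr7 and Tm7sf2 at -0.48 and -0.38 outside the lineage. In committed precursors Nsdhl had 37.5 and 34.2 CPM in KO, against 13.8 and 24.6 in WT. There it passed the filter through the KO libraries alone, which favoured a positive change. Genes that carry myelin mRNA to the processes were positive in 4 of 9, 6 of 10 and 6 of 10 cases in OPC, committed and mature nuclei and in 5 of 11 outside the lineage. Hnrnpa2b1, which binds the transport element of Mbp mRNA, had 123 and 152 CPM in mature KO nuclei, against 157 and 170 in WT (log2 -0.31, SE 0.26), and Khdrbs1 was at 0.51. The kinesins Kif5b and Kif1b were at 0.49 and 0.40 in committed precursors, and Fmr1 was at -0.59 in OPC.

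Likeness to the mean of the 9 genes was measured across 50 sums of class and library, as a Pearson correlation on log2(CPM + 1) among 13014 genes. Among the 10 genes most like it were Nipal4, Sec14l5, Rnf220, Gm12828, Galnt5, Cldn14, Fam214a, Tmeff2 and Gm5535, at 0.92 to 0.86. The sums of a library share its depth and its free RNA, so these are descriptions. Galnt5 overlaps Ermn on the opposite strand, and as the strand setting is not given, reads in the overlap cannot be assigned to either gene here. Among the 36 pairs of members the correlation was lowest for Mbp and Ermn, at 0.53, and highest for Mog and Cldn11, at 0.91, with a median of 0.70. Cldn14, a further claudin, had 544 and 431 CPM as the KO and WT means in committed precursors and 602 and 540 in mature oligodendrocytes, a course like that of Mag. Sec14l5 had 85.9 and 78.2 CPM in committed precursors and 1127 and 1130 in mature oligodendrocytes, KO before WT, a course like that of Mog.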

How the data were processed

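Nuclei were profiled with 10x 3′ v3 chemistry, and per the labels' protocols they were washed before loading to lower free RNA. The deposited matrices hold UMI counts per gene and barcode, made with Cell Ranger 4.0.0 per the file headers and the submitters' processing notes, which also name Seurat 3.2.3 and GRCm38. The intron and strand settings and the annotation release are not given in the sources used here. Barcodes over 5% mitochondrial UMIs and the top Scrublet scores at an assumed 0.8% doublets per 1000 barcodes were removed, and 93 and 91 doublets were removed in KO and 109 and 333 in WT. The 500 UMI minimum removed 0. Nuclei were clustered without the 9 genes (scanpy 1.11.5, Leiden resolution 1) into 28 clusters, of which 8 stayed unnamed. The rule that leaves a cluster unnamed was adjusted after leading genes were seen, which left clusters of 959 and 265 nuclei unnamed on ties. Sums of UMI counts over the nuclei of a class in each library were tested with edgeR 4.0.16 (quasi-likelihood, filterByExpr, TMM, two-sided, Benjamini-Hochberg over all genes tested, threshold 0.05) in R 4.3.3, with DESeq2 1.42.0 as an alternative. Classes with under 20 nuclei in a library were not tested. Intervals of shares are exact binomial (95%) and cover counting error only. In simulated counts, of 200 genes changed 4-fold the test recovered 187 in mature oligodendrocytes, 193 in committed precursors, 191 in OPC and 194 outside the lineage, but 122 for the interaction of OPC with mature oligodendrocytes. The changed genes were drawn only from genes above a floor on summed UMIs, and the simulated spread between libraries was fixed. Recovery of genes with fewer counts or smaller changes was not simulated. Named genes are the members, the genes of each list that passed or otherwise its 2 smallest p, and the 10 genes most like the members. Some genes that this rule names are not reported here. The members and lists were chosen with earlier results of these data known. Gene positions are from GENCODE vM21.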

Additional observations from a re-analysis of the deposited data

Results flagged for a closer look

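The log2 change of Mbp between KO and WT differed between classes in the edgeR interaction test. In OPC the log2 change lay apart from that in mature oligodendrocytes by -1.80 (SE 0.28, edgeR adjusted p 2.29e-07), with both KO libraries below both WT libraries in OPC and overlapping groups in mature oligodendrocytes. In nuclei outside the lineage it lay apart from that in mature oligodendrocytes by -1.38 (SE 0.30, adjusted p 0.00351), with both KO libraries below both WT libraries outside the lineage. Both calls were lost with DESeq2 and without WT replicate 1, the library with the highest mitochondrial share, whose part in the result was not tested. The second was also lost without WT replicate 2. Between OPC and nuclei outside the lineage the difference was -0.38 (SE 0.21, edgeR adjusted p 0.961). Mbp in OPC was at 1.38 and 0.23 times its level outside the lineage in the KO libraries, and at 0.60 and 1.04 times in WT. Whether the first difference concerns RNA of the OPC themselves or free RNA was not tested.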

How the results depend on the processing

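The counts of members called in mature oligodendrocytes and committed precursors were 0 under every alternative run. In OPC, DESeq2 called 0 members, and leaving out a library gave 0 to 2. Outside the lineage 1 member passed with no filter on low counts and 0 to 1 without a library. For OPC against mature oligodendrocytes, 2 members passed with doublets kept, 2 with at most 2% mitochondrial UMIs, 0 with DESeq2 and 0 to 2 without a library. For nuclei outside the lineage against mature oligodendrocytes, 2 passed with doublets kept, 2 with the per-nucleus gate, 2 with RLE factors, 0 with DESeq2 and 0 to 5 without a library. For OPC against nuclei outside the lineage 0 to 1 passed without a library. Over pairs of member and other class, 1 passed with doublets kept, 2 with at most 2% mitochondrial UMIs, 1 at Leiden resolution 2, 3 with DESeq2, 6 with no filter and 3 to 7 without a library. With the members among the clustering genes 2 passed, Mbp and Mobp in an ependymal class, and 0 in the 8 classes of the report. An ependymal class was also named with doublets kept and at Leiden resolution 2, but it was large enough to test in that run alone. Mbp turned to 0.056 in mature oligodendrocytes with doublets kept and to 0.053 with at most 2% mitochondrial UMIs, and to 0.040 in committed precursors with that maximum. With equal weight for classes outside the lineage Mag was at 0.070 and Opalin at 0.40. Without single libraries the sign turned in mature oligodendrocytes for Ermn (-1.12 to 0.43), Mag (-0.10 to 0.20), Cnp (-0.22 to 0.039), Mbp (-0.15 to 0.11) and Opalin (-0.55 to 0.16), in committed precursors for Mog (-0.033 to 0.93), outside the lineage for Cldn11 (-0.75 to 0.23), between OPC and outside for Mobp (-1.96 to 0.73) and Mbp (-1.74 to 0.82), and for the share of OPC (-0.34 to 0.035). The cause was not tested. Same-numbered libraries did not deviate together (r -0.0070, 0.0025, 0.0063 and -0.11), so the numbers were not taken as pairs. With a replicate block 1, 0, 0 and 0 members passed in OPC, committed, mature and outside nuclei, and 2 pairs in other classes. With crossed numbers, chosen after seeing the data, 2 members passed outside the lineage. Few UMIs limit Mal, Opalin, Ermn and Cnp before the mature stage.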

Other observations

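Mbp outside the lineage was unevenly spread over nuclei. Nuclei with at least 5 Mbp UMIs made up 1.62% and 5.59% of those outside the lineage in the KO libraries, against 12.9% and 7.93% in the WT libraries. In endothelial nuclei of KO replicate 2, 1 nucleus held 20 of the 35 Mobp UMIs.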
